A study of Mus musculus with 6 samples.

Results

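Ion channels that volatile anesthetics act on, and close relatives of them, were followed in the prefrontal cortex of aged mice. The 9 genes were the two-pore potassium channel genes Kcnk1, Kcnk2, Kcnk3, Kcnk4, Kcnk9 and Kcnk10 and the hyperpolarization-activated channel genes Hcn2, Hcn3 and Hcn4. They were chosen by symbol, and all 9 were found among the 21006 genes of the expression files. The 6 RNA samples came from 6 male C57BL/6 wild-type mice, labelled as 18 months old, although the sample titles carry 17 with an M. The 3 mice of the PND group, named for postoperative neurocognitive disorder, inhaled 1.5% isoflurane for 30 min and then had an exploratory laparotomy under isoflurane for another 30 min. The 3 mice of the CON group had neither anesthesia nor operation. The study's methods add that both groups went through behavioral tests, the last of them a maze that ended on postoperative day 6. Soon after the maze every mouse, CON included, was deeply anesthetized with isoflurane and perfused with saline before dissection. A PND mouse therefore carried an earlier isoflurane exposure, a laparotomy and local lidocaine cream together, whose parts cannot be told apart here, and a CON mouse was not free of isoflurane at the time of sampling. Levels are given as FPKM, the number of mapped fragments scaled by transcript length and by the size of the library, which can be compared between genes of different length.

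Two-pore potassium channels pass a steady outward potassium current that holds the resting membrane potential of a neuron. Each subunit carries a pair of pore loops, and a pair of subunits makes a channel. Channels of the TREK kind (TREK-1 from Kcnk2, TREK-2 from Kcnk10) and of the TASK kind (TASK-1 from Kcnk3, TASK-3 from Kcnk9) are opened by volatile anesthetics such as isoflurane, which quiets the cell. TRAAK from Kcnk4 is a close relative of the TREK channels that responds to stretch and is little affected by volatile anesthetics, and TWIK-1 from Kcnk1 is the founding member of the family. HCN channels open on hyperpolarization, carry a mixed sodium and potassium inward current, are made easier to open by cyclic AMP and are inhibited by volatile anesthetics. In the cortex the HCN current shapes how the dendrites of pyramidal neurons sum their inputs.

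The short stretch of coding sequence for the selectivity filter shows what the channels share and where they part. It is read from the GENCODE M21 transcripts on GRCm38, whose annotation is used for all positions here. Each stretch has 30 bases, written 5′ to 3′ on the coding strand, and the capitals mark the 3 codons for glycine, an aromatic or leucine residue and glycine that line the narrowest part of the pore. Those of Hcn3 and Hcn4 are from exon 4 of 8 in each gene and read as follows.
Hcn3: atgctatgcattGGCTATGGGcagcaggca
Hcn4: atgctgtgcattGGGTATGGAcggcaggca
They lie at chr3:89150997-89151026 on the minus strand for Hcn3 and at chr9:58855579-58855608 on the plus strand for Hcn4. Hcn3 and Hcn4 share 26 of the 30 bases, and 16 of the bases in Hcn3 and 17 in Hcn4 are G or C.

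The 6 two-pore genes carry the filter once in each pore loop. The first-loop stretch spans an exon boundary in all 6 genes, and the second-loop stretch, which lies within 1 exon, is shown.
Kcnk1: ctgagcaccatcGGCCTGGGGgactatgtt
Kcnk2: ctgacgaccattGGATTTGGAgactacgtg
Kcnk3: ctcaccaccatcGGCTTCGGCgactatgtg
Kcnk4: ctcaccactgtaGGCTTTGGCgattatgta
Kcnk9: ttgactactataGGGTTCGGCgattttgtg
Kcnk10: ctgaccacagtaGGCTTTGGTgattttgtg
In Kcnk1 the middle codon is CTG, for leucine, and in the other 5 genes it codes for phenylalanine. Among these stretches Kcnk4 and Kcnk10 share 25 of 30 bases. The stretches lie at chr8:126025323-126025352 (plus strand, exon 2 of 3) for Kcnk1, chr1:189256572-189256601 (minus strand, exon 5 of 7) for Kcnk2 and chr5:30622196-30622225 (plus strand, exon 2 of 2) for Kcnk3. Those of Kcnk4, Kcnk9 and Kcnk10 lie on the minus strand at chr19:6927622-6927651 (exon 5 of 7), chr15:72512710-72512739 (exon 2 of 2) and chr12:98440596-98440625 (exon 5 of 7).

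None of the 9 channel genes (0) differed between PND and CON by the thresholds of the study's cut-off, a change of more than 2-fold and an unadjusted p below 0.05, both taken here from limma on log2(FPKM + 0.1). The study's own folds were based on FPKM. That cut-off was passed by 241 of the 18185 genes tested, or 1.33%. An unadjusted p below 0.05 was reached by 0 of the 9 members and by 3.13% of all genes tested. The 3 PND values lay wholly above or wholly below the 3 CON values in 0 of the 9 members, against 7.66% of all genes tested. With 9 genes, counts of 0 do not set the members apart from these shares. In PND 5 members had a higher and 4 a lower fitted level, and of the 5, Kcnk2 and Hcn2 were near 0 and turned to lower with median centring or GC correction. When single samples were left out, only Hcn3 and Hcn4 kept their direction throughout. The median log2 difference of the 9 members (PND minus CON, on the log2(FPKM + 0.1) scale) was 0.0021, beside 0.0123 over all genes tested. The median size of the difference was 0.111, beside 0.156. A p above the threshold does not show that a level was equal, so each difference is given with its 95% interval. In whole tissue, fewer cells of a type and less RNA per cell cannot be told apart.

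**Figure D1:**
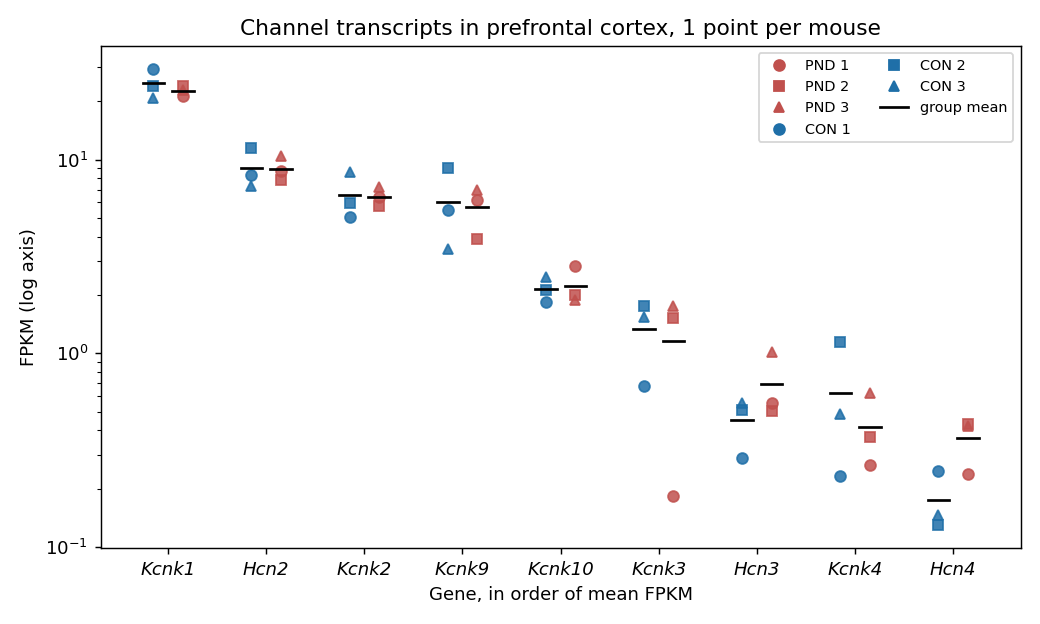
Level of each of the 9 channel genes (x axis) in FPKM on a log scale (y axis), with 1 point per mouse for PND and for CON and a bar at each group mean. The points of PND and CON overlap for every gene, and Kcnk1, at 20.7 to 29.4 FPKM, lies above the other members in every sample.

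Kcnk1 was the most abundant of the 9 (ENSMUSG00000033998, chromosome 8, 125995170 to 126030685). Its level was 21.3, 23.9 and 22.7 FPKM in PND replicates 1 to 3 and 29.4, 24.0 and 20.7 FPKM in CON replicates 1 to 3. The highest and the lowest value both came from CON, and the PND values lay between them. The PND mean was 22.6 ± 1.32 FPKM (SD, n = 3) and the CON mean 24.7 ± 4.41 FPKM (SD, n = 3). The log2 difference was -0.11 (SE 0.15), with an interval from -0.45 to 0.23 and an unadjusted p of 0.471. After adjustment over all genes tested, every one of the 9 members had an adjusted p of 0.9999. Kcnk1 shares 179 bases of exon with Gm45875 on the opposite strand, and whether reads were counted by strand is not given in the sources used here.

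Of the TREK kind, Kcnk2 was the most abundant (ENSMUSG00000037624, chromosome 1, 189207930 to 189402273). It was measured at 6.40, 5.72 and 7.18 FPKM in PND and at 5.08, 6.00 and 8.60 FPKM in CON. Here too CON held both ends of the range. The group means were 6.44 ± 0.731 and 6.56 ± 1.83 FPKM (SD, n = 3 each), and the log2 difference was 0.00 (SE 0.21), with an interval from -0.50 to 0.50 and an unadjusted p of 0.992. Kcnk2 shares 604 bases of exon with A430027H14Rik on the opposite strand, which was at most 0.353 FPKM. The highest level of Kcnk2 was in CON replicate 3, the sample with the highest summed level of the 5 striatal markers Drd1, Drd2, Adora2a, Ppp1r1b and Rgs9 (80.1 FPKM, against 38.6 to 65.0 FPKM in the other samples). The summed level of the 6 astrocyte markers was also highest in CON replicate 3 (536 FPKM, against 250 to 413 FPKM in the other samples). Slc1a2 held 368 FPKM of it. The part of striatal tissue or of astrocytes in the value of Kcnk2 was not tested.

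Kcnk10 (ENSMUSG00000033854, chromosome 12, 98429437 to 98578310) was lower, at 2.81, 2.00 and 1.89 FPKM in PND and 1.84, 2.13 and 2.47 FPKM in CON. PND replicate 1 was the highest sample and CON replicate 1 the lowest, and the other 4 samples lay between 1.89 and 2.47 FPKM. Kcnk10 had a log2 difference of 0.04 (SE 0.22), with an interval from -0.48 to 0.57 and an unadjusted p of 0.857. The ratio of Kcnk2 to Kcnk10 was above 1 in all 6 samples. PND replicate 1 had the lowest, 2.28, and PND replicate 3 the highest, 3.80.

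Kcnk4, the gene of TRAAK (ENSMUSG00000024957, chromosome 19, 6923966 to 6934515), was low in these samples. It had 0.264, 0.369 and 0.621 FPKM in PND and 0.233, 1.14 and 0.486 FPKM in CON, so CON replicate 2 stood apart at the top. The files hold no counts, and the steps between the values allow as few as 3 to 16 fragments a sample. The log2 difference was -0.33 (SE 0.53), with an interval from -1.58 to 0.92 and an unadjusted p of 0.556, which allows changes of more than 2-fold downward. It was 0.17 without CON replicate 2, so its direction rested on that sample, and -0.78 without CON replicate 1. Kcnk4 shares 587 bases of exon with Catsperz on the same strand. The level of Catsperz was 1.45, 0.81 and 1.50 FPKM in PND and 0.51, 1.41 and 0.71 FPKM in CON, and how shared reads were assigned is not given in the sources used here. Summed over Kcnk2, Kcnk4 and Kcnk10, PND had 9.09 ± 0.871 FPKM and CON 9.33 ± 2.20 FPKM (SD, n = 3 each).

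Of the TASK kind, Kcnk9 exceeded Kcnk3 in all 6 samples. Kcnk9 (ENSMUSG00000036760, chromosome 15, 72501089 to 72546340) was at 6.17, 3.87 and 6.96 FPKM in PND and at 5.52, 9.03 and 3.45 FPKM in CON. CON replicates 2 and 3 were its highest and lowest samples. For Kcnk9 the log2 difference was -0.02 (SE 0.37), with an interval from -0.87 to 0.84 and an unadjusted p of 0.964. It was 0.327 without CON replicate 2, 0.231 without PND replicate 2 and -0.355 without CON replicate 3, so its direction depended on single samples.

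Kcnk3 (ENSMUSG00000049265, chromosome 5, 30588170 to 30625271) had the widest spread of the 9 genes, with its highest sample 9.62 times its lowest. It was at 0.183, 1.52 and 1.75 FPKM in PND and at 0.680, 1.76 and 1.55 FPKM in CON. The value of PND replicate 1 rested on as few as 3.5 fragments, against as few as 11 to 35.5 in the other 5 samples. The log2 difference was -0.50 (SE 0.74), with an interval from -2.22 to 1.23 and an unadjusted p of 0.521, and it was 0.37 without PND replicate 1. The direction of Kcnk3 therefore rested on this 1 sample. Kcnk3 shares 229 bases of exon with Gm9899 on the opposite strand, which was at 1.55 to 2.44 FPKM over the samples. In PND replicate 1, Kcnk9 was 33.7 times Kcnk3, while the ratio ran from 2.23 to 8.12 in the other samples. Together the TASK genes summed to 6.82 ± 1.71 FPKM for PND and 7.33 ± 3.06 FPKM for CON (SD, n = 3 each).

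Among the HCN genes the most abundant member was Hcn2 (ENSMUSG00000020331, chromosome 10, 79716634 to 79736108), whose channel is also prominent in the thalamus. Its level was 8.67, 7.81 and 10.4 FPKM in PND and 8.30, 11.5 and 7.34 FPKM in CON. As with Kcnk1, Kcnk2, Kcnk4 and Kcnk9, the highest and lowest samples were both CON. The means were 8.97 ± 1.34 and 9.04 ± 2.17 FPKM (SD, n = 3 each), with a log2 difference of 0.00 (SE 0.20), an interval from -0.46 to 0.47 and an unadjusted p of 0.981.

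Hcn3 (ENSMUSG00000028051, chromosome 3, 89146074 to 89160196) was at 0.551, 0.503 and 1.02 FPKM in PND and at 0.289, 0.510 and 0.552 FPKM in CON. PND replicate 3 was the highest and CON replicate 1 the lowest, and the other 4 samples lay between 0.503 and 0.552 FPKM. Between the groups the log2 difference was 0.50 (SE 0.37), with an interval from -0.37 to 1.38 and an unadjusted p of 0.219. It was 0.22 without PND replicate 3, 0.27 without CON replicate 1 and 0.21 with a pseudocount of 1. Hcn3 shares 711 bases of exon with Pklr on the opposite strand.

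Hcn4, the pacemaker channel of the sinoatrial node (ENSMUSG00000032338, chromosome 9, 58823412 to 58863175), had the lowest level and the largest fitted difference of the 9. It was at 0.238, 0.433 and 0.421 FPKM in PND and at 0.246, 0.129 and 0.146 FPKM in CON. PND replicates 2 and 3 lay above all CON samples, and PND replicate 1 lay just below CON replicate 1. The fewest fragments that the values allow were 8, 13 and 15 in PND and 7, 4 and 4 in CON. By exon length and estimated depth they were 12.9, 20.9 and 24.2 in PND and 11.3, 6.45 and 6.43 in CON. The means were 0.364 ± 0.109 and 0.174 ± 0.063 FPKM (SD, n = 3 each), and their ratio, 2.09, was past 2-fold. On the log2(FPKM + 0.1) scale the fitted fold was 1.69, with bounds of 0.911 and 3.12. The log2 difference was 0.75 (SE 0.38), with an interval from -0.13 to 1.64 and an unadjusted p of 0.0851. With a pseudocount of 0.01 the difference was 1.03, past 2-fold, with an unadjusted p of 0.0921, and with a pseudocount of 1 it was 0.21. Fitted without the trend of spread on intensity, the unadjusted p was 0.0283 with the adjusted p above 0.05, and this was the only 1 of 159 alternative values over the 9 members with an unadjusted p below 0.05. Of the thalamic markers, Prkcd had an unadjusted p of 0.0375 and was higher in PND. Of the 5, 4 had a higher fitted level in PND, with a median log2 difference of 0.14, and the 5 summed to 8.77 to 10.3 FPKM in PND and 9.48 to 9.76 FPKM in CON. Their part in the value of Hcn4 was not tested.

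**Figure D2:**
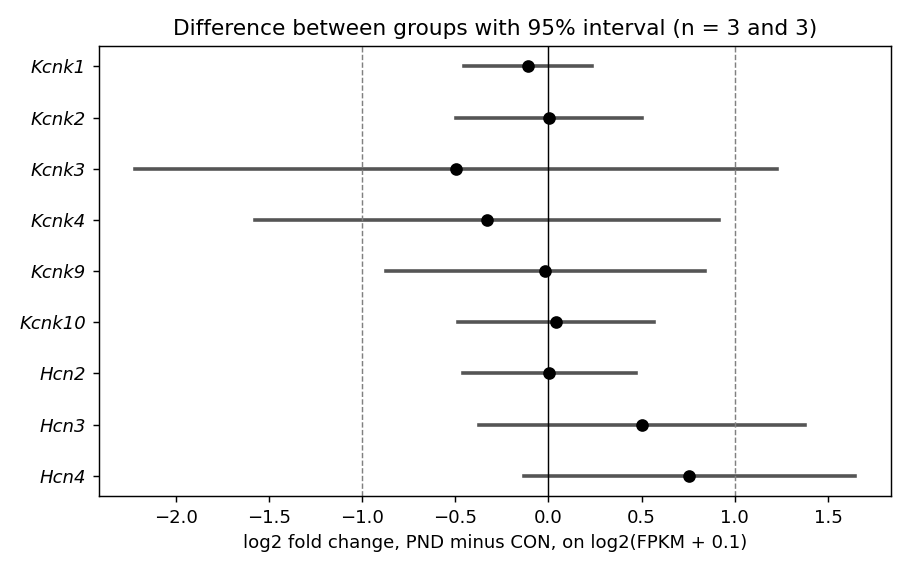
Log2 difference (PND minus CON, x axis) of each channel gene, with its 95% interval from limma, and dashed lines at a 2-fold change in either direction. All intervals include 0, and those of Kcnk1, Kcnk2, Kcnk9, Kcnk10 and Hcn2 lie within 2-fold.

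For 5 of the 9 genes (Kcnk1, Kcnk2, Kcnk9, Kcnk10 and Hcn2), the interval lay within a 2-fold change in both directions. For the other 4, which include the 3 lowest genes, it reached beyond 2-fold in at least one direction. All 9 members passed the filter on low values.

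Of the summed FPKM of Hcn2, Hcn3 and Hcn4 alone, Hcn2 made up 91.7, 89.3 and 87.9% in PND and 93.9, 94.7 and 91.3% in CON. The groups overlapped, with PND replicate 1 above CON replicate 3. Hcn3 took 3.27 to 8.59% and Hcn4 1.07 to 4.95% over the 6 samples. The sum of the 3 genes was 10.03 ± 1.64 FPKM for PND and 9.66 ± 2.16 FPKM for CON (SD, n = 3 each).

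Of the summed FPKM of the 10 two-pore potassium channel genes listed here that were in the files, Kcnk1 made up 51.5 to 66.0%, Kcnk2 11.4 to 21.7%, Kcnk9 8.71 to 19.4% and Kcnk10 4.14 to 7.18%. The total ran from 39.1 to 46.6 FPKM over the 6 samples. The 6 members among them summed to 38.5 ± 2.25 FPKM for PND and 41.3 ± 3.64 FPKM for CON (SD, n = 3 each). These shares are shares of RNA, and they say nothing of the amount of channel protein.

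**Figure D3:**
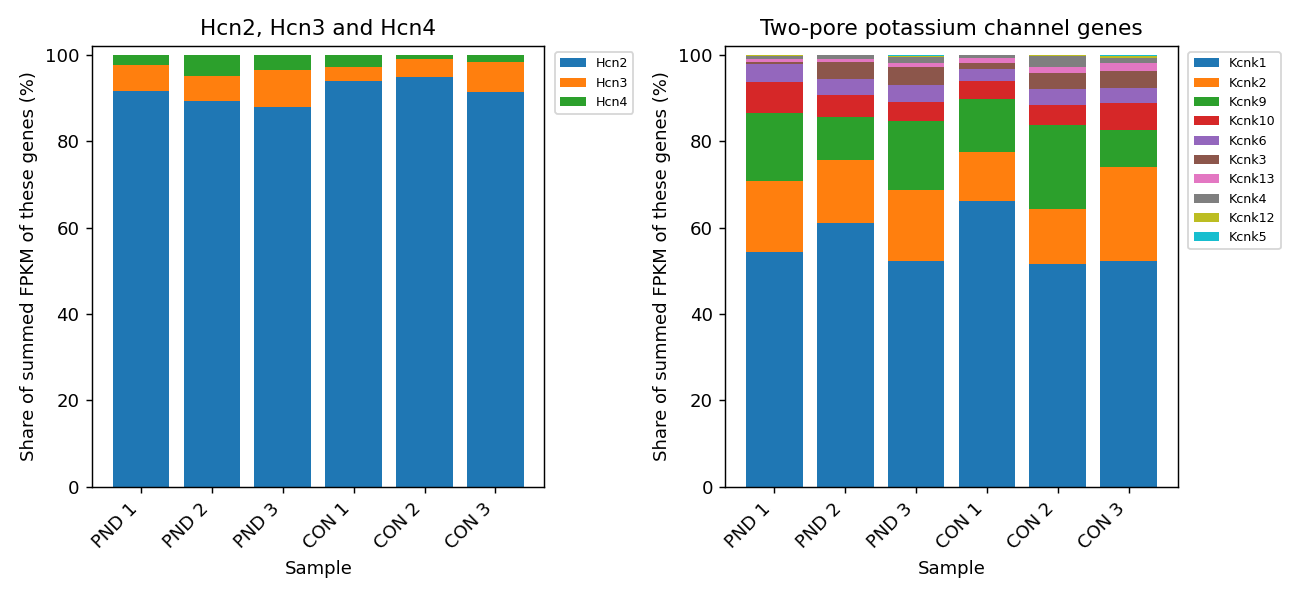
Share of each gene (y axis, percent of the summed FPKM) among Hcn2, Hcn3 and Hcn4 and among the two-pore potassium channel genes, with 1 stacked bar per mouse (x axis). Hcn2 takes 87.9 to 94.7% of the first sum and Kcnk1 51.5 to 66.0% of the two-pore sum.

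In the order of mean FPKM over the 6 samples the members ran from Kcnk1 (23.7) through Hcn2 (9.01), Kcnk2 (6.50), Kcnk9 (5.83), Kcnk10 (2.19), Kcnk3 (1.24), Hcn3 (0.571) and Kcnk4 (0.520) to Hcn4 (0.269). In this order 3 steps were clear of the spread between samples, with no overlap of the sample ranges: Kcnk1 above Hcn2, Kcnk9 above Kcnk10 and Kcnk10 above Kcnk3. Neighbors whose ranges overlapped changed place in some samples. Hcn2 lay above Kcnk2 in 5 of 6 samples and Kcnk2 above Kcnk9 in 4 of 6. Kcnk3 lay above Hcn3 in 5 of 6, Hcn3 above Kcnk4 in 5 of 6 and Kcnk4 above Hcn4 in 4 of 6.

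The highest and lowest values of the members were spread unevenly over the 6 samples. CON replicate 2 held the highest value of 4 members (Kcnk3, Kcnk4, Kcnk9 and Hcn2), and 25.4% of all genes tested were also highest there. CON replicate 1 held the lowest value of 4 members, and 25.6% of all genes tested were lowest there. Hcn2 and Kcnk9 ranked the 6 samples identically, from CON replicate 2 down through PND replicate 3, PND replicate 1, CON replicate 1 and PND replicate 2 to CON replicate 3. CON replicate 2 also had the highest summed level of the excitatory neuron markers Slc17a7, Camk2a, Neurod6 and Nrgn, at 367 FPKM, against 176 FPKM in CON replicate 1 and 212 to 267 FPKM in the other 4 samples. Slc17a7, Camk2a and Nrgn had a GC content of 53.3 to 58.6%, and these 2 CON samples were the extremes of the GC measure given below. Neurod6, at 41.9% GC, was 104 FPKM in CON replicate 2. In CON replicate 1 it was 80.9 FPKM, above PND replicates 1 (78.2 FPKM) and 3 (79.7 FPKM). The part of the difference between these sums in the channel values was not tested.

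The samples also differed in how genes of high GC content behaved. Hcn2 had a GC content of 65.4%, above 99.7% of the genes tested, and Kcnk3 (59.1%), Hcn3 (58.0%) and Hcn4 (58.0%) lay above 94.6, 92.1 and 92.0% of them. Kcnk4 was at 54.0%, Kcnk1 at 51.8%, Kcnk2 at 51.2%, Kcnk9 at 47.9% and Kcnk10 at 46.5%. Taken over the 1233 genes with the highest GC content (56.6% or more), each sample's log2 values deviated from the means of the genes by a median of 0.11, -0.30 and 0.37 in PND and -0.56, 0.49 and -0.03 in CON. In CON replicate 2, at the upper end of this measure, Kcnk3 and Hcn2 were highest but Hcn4 was lowest. In CON replicate 1, at the lower end, Hcn3 was lowest, while Kcnk3 and Hcn2 were lowest in PND replicate 1 and CON replicate 3.

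**Figure D4:**
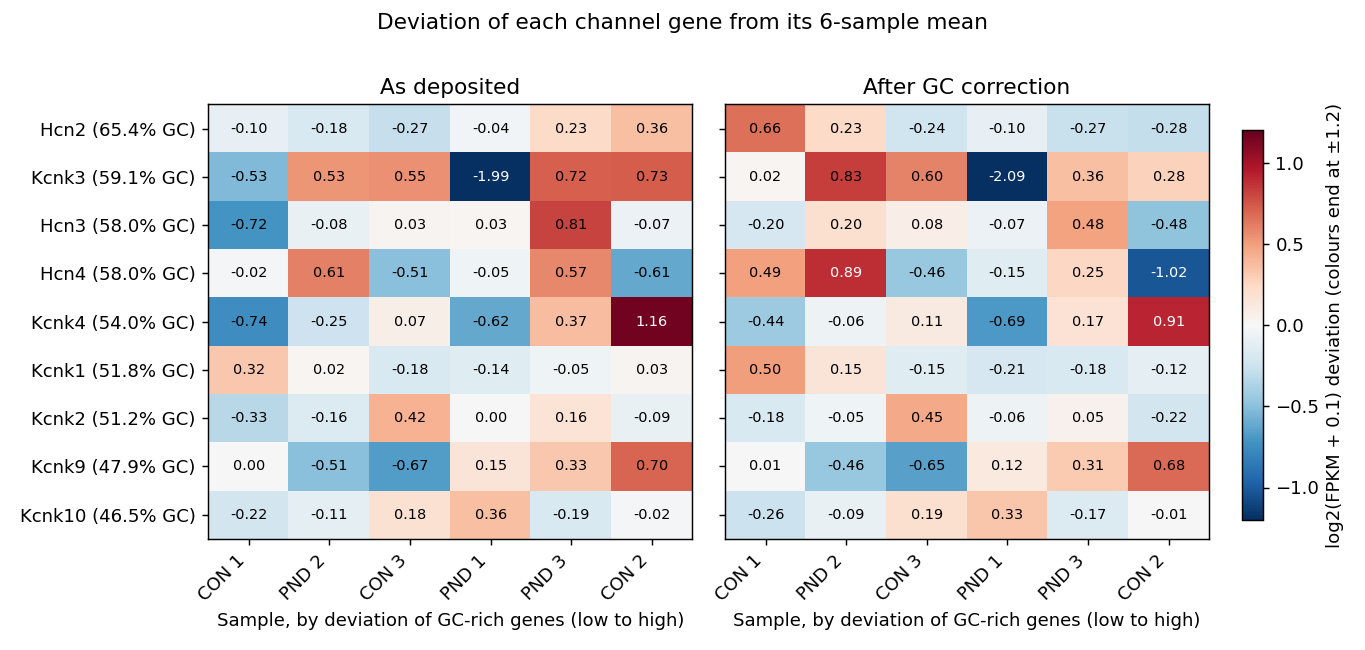
Deviation of each channel gene (rows) from its own mean over the 6 samples (columns), on the log2(FPKM + 0.1) scale, as deposited (left) and after GC correction (right), with the samples in the order of the median deviation of GC-rich genes and the value printed in each cell. Kcnk3 in PND replicate 1 is the lowest cell of both panels, and no gene has all 3 PND cells on one side of all 3 CON cells.

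After the GC trend was taken out of each sample, the residual SD fell in 6 members and rose in 3. It fell from 0.448 to 0.279 for Hcn3 and from 0.761 to 0.575 for Kcnk4, and it rose from 0.189 to 0.295 for Kcnk1, from 0.276 to 0.416 for Hcn2 and from 0.344 to 0.656 for Hcn4. The difference of Hcn2 was -0.095 after this correction and that of Kcnk2 was -0.039, so that the sign of both depended on it.

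Among the genes around these channels, few passed a test. The 5 lists of channel relatives, partners and cyclic AMP enzymes held 48 genes, of which 42 were in the files and 38 were tested. None of the 38 (0) passed the study's cut-off, 1 had an unadjusted p below 0.05 and was higher in PND, and 1 was lower, beside the 3.13% of all genes tested. The lists were 9 tested adenylyl cyclases, which make cyclic AMP (0 and 0), 10 phosphodiesterases, which break it down (1 higher), 4 HCN partners (0 and 0), 3 other two-pore channels (1 lower) and 12 partners of two-pore channels (0 and 0). The median log2 differences of these lists, in this order, were -0.01, 0.04, 0.02, 0.03 and 0.02, beside 0.0123 over all genes tested. Both genes with an unadjusted p below 0.05 had an adjusted p of 0.9999.

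The gene that was lower was Kcnk13, which makes THIK-1, a two-pore channel that sets the resting potential of microglia and is inhibited by volatile anesthetics. It was at 0.278, 0.267 and 0.431 FPKM in PND and 0.516, 0.625 and 0.733 FPKM in CON, and every PND value lay below every CON value. It had a log2 difference of -0.78 (SE 0.31) and an unadjusted p of 0.0405. As few as 6 to 11.5 fragments per PND sample and 11 to 15 per CON sample lay behind these values. The difference was -0.29 with a pseudocount of 1 and -0.94 with 0.01. Over its alternatives the unadjusted p ran from 0.0111 to 0.109, and it was above 0.05 without PND replicate 1 (0.106), PND replicate 2 (0.0997), CON replicate 2 (0.0758) and CON replicate 3 (0.109). Of the 5 microglial markers, P2ry12, a purine receptor of resting microglia, was also lower in PND, at 4.61, 7.06 and 4.79 FPKM against 10.7, 9.47 and 7.68 FPKM (log2 difference -0.76, unadjusted p of 0.00767). The other 4 microglial markers did not pass the test, with log2 differences of 0.59 for C1qa, 0.52 for Tmem119, 0.15 for Cx3cr1 and -0.13 for Csf1r. The summed level of the 5 overlapped between the groups, at 17.8 to 25.1 FPKM in PND and 19.7 to 29.6 FPKM in CON. The part of microglia in the value of Kcnk13 was not tested.

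The gene that was higher was Pde10a, a phosphodiesterase known for its high level in striatal medium spiny neurons. It was at 14.9, 14.5 and 9.98 FPKM in PND and 7.49, 7.01 and 11.1 FPKM in CON, where CON replicate 3, the sample highest in striatal markers, lay above PND replicate 3. PND exceeded CON by 0.62 on the log2 scale (SE 0.23), and the unadjusted p was 0.0278. That p was above 0.05 without PND replicate 1 (0.0972), PND replicate 2 (0.0903), CON replicate 1 (0.0767) or CON replicate 2 (0.0848), and 0.0519 without the trend on intensity. All 5 striatal markers had a higher fitted level in PND, with a median log2 difference of 0.13, and 0 of them passed the test. Of these, Drd2 was near 0 (0.0083) and turned to -0.061 with GC correction. The 5 markers summed to 52.3 to 65.0 FPKM in PND and 38.6 to 80.1 FPKM in CON. Their part in the value of Pde10a was not tested. Pex5l, the gene of TRIP8b, an auxiliary subunit that controls how many HCN channels reach the dendritic membrane, was at 19.2, 15.03 and 18.0 FPKM in PND and 18.0, 21.7 and 16.5 FPKM in CON. Its log2 difference was -0.10 (SE 0.15), with an unadjusted p of 0.524.

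The excitatory neuron markers Slc17a7 and Neurod6 were found in every sample, and so were striatal markers such as Drd1, at 10.8 to 25.4 FPKM. Of 55 cell type and region markers, 50 were tested, 3 were higher in PND at an unadjusted p below 0.05 (Gfap, Clic6 and Prkcd) and 2 were lower (Aqp4 and P2ry12). These 5 genes were 10% of the markers tested, beside 3.13% of all genes tested. Gfap, the intermediate filament of astrocytes, was at 22.9, 17.7 and 24.7 FPKM in PND and 13.0, 14.9 and 13.0 FPKM in CON. Aqp4, the astrocytic water channel, went the other way, at 25.6, 21.5 and 24.8 FPKM in PND and 34.5, 26.8 and 31.3 FPKM in CON, and the 6 astrocyte markers had a median log2 difference of 0.0013. Of the choroid plexus markers, Clic6 was at 1.88, 1.51 and 2.14 FPKM in PND and 0.962, 0.701 and 1.49 FPKM in CON (log2 difference 0.80, unadjusted p of 0.0319), Kl (0.34) and Kcnj13 (0.05) did not pass the test, and Ttr and Folr1 were at or near 0, with Ttr at most 0.207 FPKM. The hypothalamus, septum and basal forebrain list summed to 1.41 to 2.03 FPKM in PND and 0.617 to 0.878 FPKM in CON, from Chat, Trh and Pmch. The values of each of these genes overlapped between the groups, and 0 of them passed the test. The genes behind the sum differed between samples. Trh was 1.39 FPKM in PND replicate 3 but 0.0914 FPKM in PND replicate 2. Pmch was 0.507 FPKM in PND replicate 2, from an estimated 3 fragments, and 0 in PND replicates 1 and 3. The part of these tissues in the channel values was not tested. Estimated depth ran from 7179281 to 9385414 fragments per sample, and transcripts encoded by mitochondria took 30.4 to 38.8% of the summed FPKM. The fewest fragments a sample that the values allow were 3 to 16 for Kcnk4, 6 to 26.5 for Hcn3 and 4 to 15 for Hcn4. By exon length and estimated depth they were 7.79 to 41.7, 8.99 to 39.8 and 6.43 to 24.2. At such counts, counting error can limit what could be detected, and its size was not tested.

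As a description of likeness, the 3 genes averaging 1 FPKM or more whose profile over the 6 samples was most like that of Kcnk1 were Rpp25 (r = 0.981), Stambp (r = 0.980) and Slc16a7 (r = 0.979). For Hcn2 they were Tef (r = 0.999), Sdhaf4 (r = 0.988) and Cacng3 (r = 0.983). They were picked as the highest r among 12386 genes compared, over 6 samples that share depth and GC differences.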

How the data were processed

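RNA from 6 prefrontal cortex samples, from 3 PND and 3 CON mice, had been depleted of ribosomal RNA and sequenced. The authors aligned the reads with HISAT2, counted fragments per gene with StringTie, scaled the counts with TMM and deposited 1 FPKM value per gene and sample. The genome build and the use of strand are not given in the sources used here. The submitters' processing notes name Bowtie 0.12.2, mm8 and mm9 without a role. FPKM files hold no counts, so depth was estimated from the steps between low FPKM values times exon length (41.5 to 44.7% of low values lay within 0.05 of a whole number). A low gene's fragments were taken as the fewest whole numbers, or multiples of 0.5 where no whole ones matched, that its values in all samples allow.

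Genes averaging 0.1 FPKM or more (18185) were compared as log2(FPKM + 0.1) with limma 3.58.1 in R 4.3.3, two-sided, with an intensity trend and Benjamini-Hochberg adjustment. A fold change on this scale understates that of low genes. The thresholds were the study's (2-fold, unadjusted p below 0.05), but its folds were based on FPKM. The procedure was tested on simulated data. Symbols, positions and sequences came from GENCODE M21. Genes were named as the 9 members, Pex5l, list genes with an unadjusted p below 0.05 and the 3 profiles nearest to Kcnk1 and to Hcn2. Genes with overlapping exons and other markers were named after their values were seen. Some list genes and one sequence are not reported here, and list counts leave them out. Members and lists were chosen with earlier results of these data known. Every p-value sets a group difference against the spread between single mice, which limma draws toward that of other genes.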

Additional observations from a re-analysis of the deposited data

How the results depend on the processing

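None of the 9 members (0) passed the study's cut-off in any of the 19 alternatives, and 139 of their 159 alternative differences kept their direction. A change of filter or variance model, or a block for the replicate number, cannot move a difference, so part of these kept direction by construction. The alternative with an unadjusted p below 0.01 uses the same fit and could not add a member. One member (1), Hcn4, had an unadjusted p below 0.05 without the intensity trend. The number of genes past the cut-off, 241 in the report, was 59 when genes averaging under 1 FPKM were left out (which removes 3 members, Kcnk4, Hcn3 and Hcn4), 88 at an unadjusted p below 0.01 and 25 with a pseudocount of 1. It ran from 240 to 402 when single samples were left out, and was 402 without CON replicate 2 (297 higher and 105 lower in PND). The split was 115 and 125 without PND replicate 3 and 200 and 145 without CON replicate 1. With quantile normalization 124 genes were higher and 116 lower in PND, against 153 and 88. The cause was not tested.

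The difference of Kcnk2 was -0.0010 with a pseudocount of 1, -0.0035 with median centring, -0.039 with GC correction and -0.039 with GC correction and the replicate block. That of Hcn2 was -0.00070 with median centring and -0.095 with GC correction, with and without the block. With single samples left out, the differences ran from -0.231 to 0.022 for Kcnk1, -0.162 to 0.213 for Kcnk2, -0.979 to 0.375 for Kcnk3, -0.781 to 0.169 for Kcnk4, -0.355 to 0.327 for Kcnk9, -0.128 to 0.146 for Kcnk10, -0.131 to 0.189 for Hcn2, 0.222 to 0.669 for Hcn3, 0.638 to 0.968 for Hcn4 and -0.187 to 0.011 for Pex5l.

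Samples of the same number did not deviate together (mean correlation -0.157, against 0.079 for other pairs), so the number was not taken as a pairing. With it as a replicate block, 226 genes passed the cut-off, 0 members did, and the unadjusted p was 0.0714 for Kcnk13 and 0.0699 for Pde10a. With 3 mice a group, increases of 2-fold in Kcnk3, Hcn3 and Hcn4 and decreases of 2-fold in Kcnk3 and Kcnk4 lay within the intervals.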
